A study of Sus scrofa with 2 samples.

Results

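The genes described here encode the respiratory chain and ATP synthase of the mitochondrion, in pig thymocytes and in invariant natural killer T (iNKT) thymocytes. They are the 86 of 21301 listed genes whose symbol starts with NDUF, UQCR, COX4 to COX8, ATP5 or SDHA to SDHD, or names a protein gene of the mitochondrial genome. The mitochondrial genome encodes 13 of them and nuclear chromosomes encode 73, of which 64 are subunits or isoforms, 8 are complex I assembly factors and 1 is ATP5IF1, the inhibitor of ATP synthase. Members were chosen by name and not by their level. Assembly factors of complexes I to V with other symbols in the deposited gene list are not among the members. Subunits without a matching symbol in that list are also missing, such as ATP5F1B, UQCRB and UQCRH, so the complexes are not complete. By complex, the nuclear members fall into 38 for complex I, 3 for complex II, 5 for complex III, 14 for complex IV and 13 for ATP synthase. The mitochondrial members fall into 7, 0, 1, 3 and 2 in the same order.

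Complexes I and II pass electrons from NADH and succinate to ubiquinone, complex III passes them on to cytochrome c, and complex IV hands them to oxygen. Complexes I, III and IV pump protons, and ATP synthase, counted as complex V, uses the gradient to make ATP. All complexes except complex II are built from subunits of both genomes, so the nucleus and the mitochondrion must both supply transcripts for one machine. Developing T cells alternate between bursts of division, which follow rearrangement of the T cell receptor beta chain, and resting stages in which the alpha chain is rearranged and tested.

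Cells came from the thymi of 2 untreated pigs of mixed breed, 22 weeks old, whose cells were combined before each library. One library holds total thymocytes and the other holds iNKT thymocytes from the same thymi, enriched with beads. Flow cytometry was then used to keep only live cells for either library. Both libraries used 10x Genomics 3′ chemistry, version 3.1, which counts each captured transcript once at its 3′ end by a unique molecular identifier (UMI). There was 1 library of each kind and no replicate, so no test across replicates could be made and no p-value is given. Intervals are at 95% and cover counting error only, not the spread between animals, and any effect of bead selection cannot be told apart from cell kind.

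The total thymocyte library gave 8512 cells with at least 500 genes and 29256113 UMIs, and the iNKT library gave 11950 cells and 54356265 UMIs. Median depths were 2299.5 and 4099 UMIs per cell, and 41 barcodes occurred in both libraries. Cells were not filtered on mitochondrial content: 5.71% and 5.67% of them had over 10% of their UMIs from the 13 mitochondrial genes. ZBTB16, the transcription factor that marks iNKT cells, had 231 UMIs per 1000000 (counts per 1000000 UMIs, CPM) among iNKT thymocytes and only 0.410 among total thymocytes. Groups of cells were drawn by counts of marker transcripts. Of total thymocytes, 422 were non-dividing cells with at least 2 UMIs of pre-TCR alpha (PTCRA), 624 were resting double-positive cells with CD4, CD8 and RAG transcripts, 178 were post-selection cells, 247 were mature cells with CCR7 or S1PR1, and 863 were dividing. Another 252 had at least 2 UMIs of SOX13 and RHEX together, so not every cell need have both. They are called by these genes because TRDC, the gamma-delta receptor gene, was at only 1.91 CPM in them. Of iNKT cells, 9467 were non-dividing and 197 were dividing. Markers not used to draw the groups they are given for differed as well: KLF2, an egress factor, was at 319 CPM in mature and 24.3 CPM in resting double-positive cells, and DNTT, which adds bases during receptor rearrangement, was at 934 CPM in pre-TCR and 274 CPM in resting double-positive cells.

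Nuclear-encoded members together made up 1.59% of UMIs of total thymocytes, and mitochondrial-encoded members made up 5.78%. The 2 sums did not follow each other over the groups. Nuclear-encoded transcripts were lowest in mature cells (1.27%, interval 1.25 to 1.29) and highest in dividing thymocytes (1.78%, 1.76 to 1.79). Shares of all UMIs also move with the other genes: under TMM scaling, which assumes that most genes do not differ, the nuclear sum of mature cells was 1.05 times that of resting double-positive cells, above it rather than below. Mitochondrial-encoded transcripts were highest in resting double-positive cells (6.75%, 6.70 to 6.80), which had a nuclear sum of 1.39%, next to pre-TCR cells (6.14% and 1.41%). This order turned for dividing thymocytes, whose mitochondrial sum was 1.11 times that of resting double-positive cells under TMM scaling and 1.25 times in cells with 2000 to 4000 UMIs. Post-selection, mature and SOX13 RHEX cells had 5.27%, 5.32% and 5.28% mitochondrial-encoded UMIs, with counting intervals that overlap. Their nuclear sums were 1.44%, 1.27% and 1.53%.

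The number of mitochondrial-encoded UMIs per nuclear-encoded UMI does not depend on what else a cell transcribes, because both sums are divided by the same total. It was 4.87 (4.78 to 4.95) in resting double-positive cells, 4.35 in pre-TCR cells, 4.19 in mature cells, 3.66 in post-selection cells and 3.44 in SOX13 RHEX cells. Dividing thymocytes were lowest, at 3.34 in S phase and 3.09 in G2 or M phase (G2/M). Non-dividing iNKT cells had 3.81 and dividing iNKT cells 3.75, between the post-selection and mature cells of the total thymus. This order depended on the setting. With equal weight per cell, S-phase thymocytes (4.03) were above SOX13 RHEX (3.99) and post-selection cells (3.78), G2/M thymocytes were at 3.60, and dividing iNKT cells (4.86) were above mature cells (4.36). In cells with 2000 to 4000 UMIs, dividing thymocytes had 4.94 and SOX13 RHEX cells 3.43. Relative to resting double-positive cells the ratio was 0.656 (0.643 to 0.669) in dividing cells, 0.751 (0.728 to 0.776) in post-selection cells and 0.861 (0.837 to 0.885) in mature cells, which share the same resting group.

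**Figure D1:**
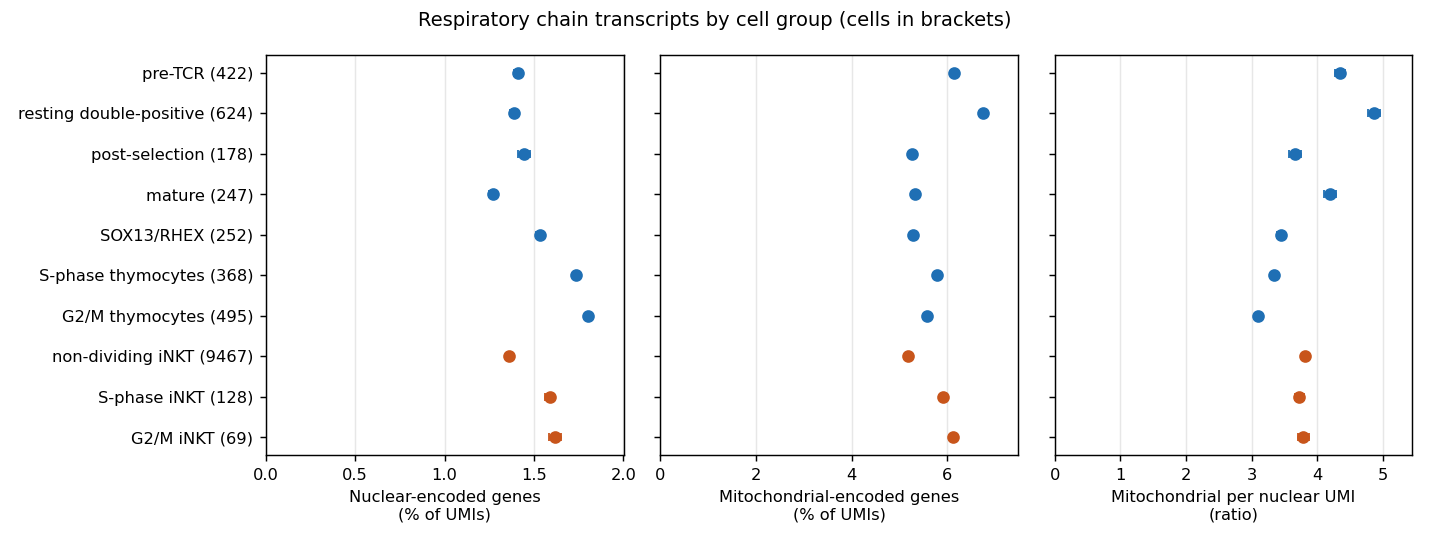
Sum of the nuclear-encoded members, sum of the mitochondrial-encoded members (both in % of UMIs) and mitochondrial-encoded UMIs per nuclear-encoded UMI, by cell group. Blue points are groups of the total thymocyte library, orange points of the iNKT library, and bars are 95% counting intervals. SOX13/RHEX marks the cells with at least 2 UMIs of these genes together. Dividing thymocytes have the highest nuclear sum and the lowest ratio (3.09 and 3.34), resting double-positive cells the highest ratio (4.87).

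These ratios varied with the depth of a cell, but not alike in every group. Over all total thymocytes the ratio went from 5.84 in cells with 500 to 1000 UMIs to 2.94 in cells with 8000 or more. The mix of groups also changed with depth there, and its part was not tested. At 1000 to 2000 and 2000 to 4000 UMIs, resting double-positive cells had 4.91 and 4.92, and pre-TCR cells 4.16 and 4.41. Between the same ranges the ratio fell from 4.096 to 3.73 in post-selection cells and from 12.5 to 4.94 in dividing thymocytes. In the iNKT library it was 23.6 and 13.9 in the 2 lowest depth ranges, where mitochondrial-encoded genes took 16.7% and 12.96% of UMIs, and 3.91 to 3.37 in cells with 2000 or more. Nuclear-encoded members were also scarcer in cells of high mitochondrial content. Their share of all UMIs that were not mitochondrial-encoded was 1.74% in total thymocytes with 4 to 6% mitochondrial UMIs and 0.969% in those with 15% or more, and it was 1.48% and 0.863% in iNKT cells. The part of RNA quality or cell damage in this was not tested.

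Depth differed between the groups compared. Resting double-positive cells had a median of 1334.5 UMIs, post-selection cells 2579, mature cells 3185 and dividing thymocytes 6231. Among cells with 2000 to 4000 UMIs, the ratios relative to resting double-positive cells were 0.758 for post-selection and 0.855 for mature cells, close to the values over all cells. For dividing cells in that range it was 1.006, so the difference was not seen there. The 75 dividing cells of that depth had 8.36% mitochondrial-encoded UMIs, against 5.47% in the 465 dividing cells with 4000 to 8000 UMIs. With cells above 10% mitochondrial UMIs also left out, the ratio at 2000 to 4000 UMIs was 0.707. The nuclear sum, in contrast, was higher in dividing cells in all these settings, by 1.28-fold over all cells, 1.24-fold at matched depth and 1.35-fold with cells above 10% mitochondrial UMIs also left out.

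**Figure D2:**
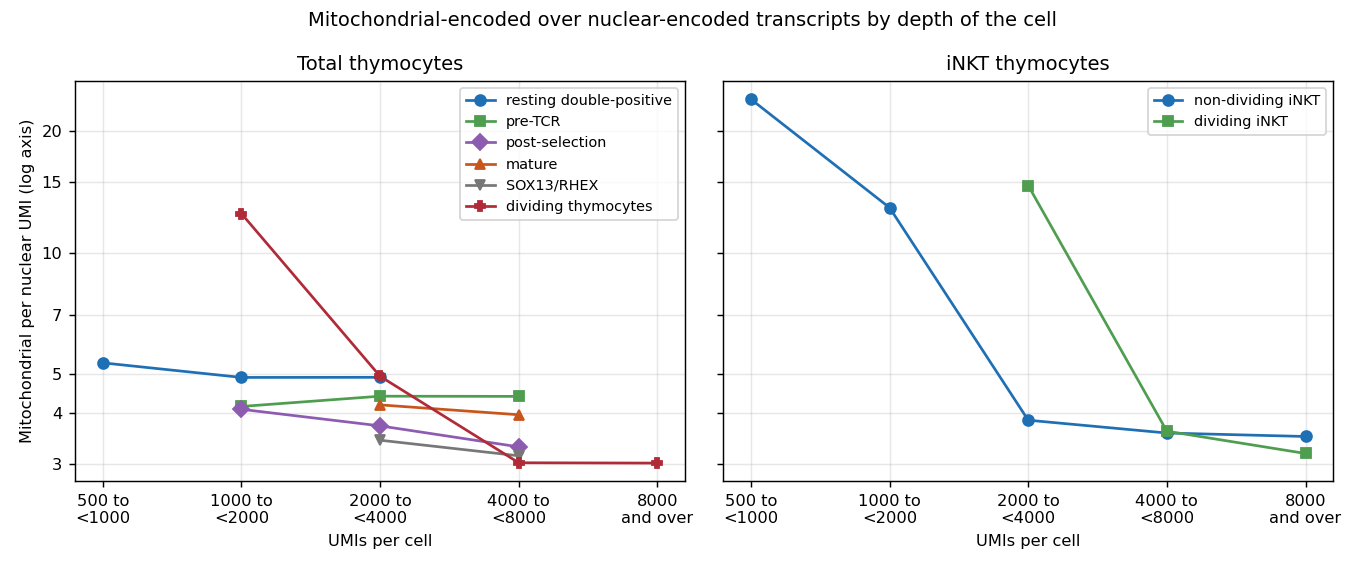
Mitochondrial-encoded UMIs per nuclear-encoded UMI (log axis) by the number of UMIs per cell, for groups of total thymocytes (left) and of iNKT thymocytes (right). Each point is the ratio of summed UMIs over the cells of 1 group in 1 depth range, shown where the range held at least 20 cells. Resting double-positive cells stay between 4.91 and 5.34, while shallow dividing and shallow iNKT cells lie above 10.

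Single cells showed the same order of the nuclear sum. The median cell had 1.37% of its UMIs from nuclear-encoded members in the resting double-positive group (quartiles 1.16% and 1.60%) and 1.76% in the dividing group (1.53% and 1.99%), so the quartile ranges overlapped only between 1.53% and 1.60%. After each cell was thinned to 2000 UMIs, which left 123 resting double-positive and 788 dividing cells, the medians were 1.30% and 1.75%. For iNKT cells the thinned medians were 1.35% in 8825 non-dividing and 1.55% in 189 dividing cells. Thinned mitochondrial medians were 6.15% and 5.40% in resting double-positive and dividing thymocytes, and 4.85% and 5.45% in non-dividing and dividing iNKT cells.

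The mitochondrial-encoded members were not present in fixed proportions. Their genes are transcribed as long precursors and cut apart, and each share below is of the summed UMIs of all 13. COX1, a catalytic subunit of complex IV, took 20.8% in pre-TCR cells and 18.3% in resting double-positive cells, and between 14.1% (mature) and 16.9% (SOX13 RHEX) in the other groups. ND1, a membrane subunit of complex I, went the other way: it took 3.94% in pre-TCR and 4.42% in resting double-positive cells and 4.90% to 5.85% elsewhere. ND5, another membrane subunit of complex I, was at 1053 CPM in resting double-positive cells and at 568 CPM in post-selection, 601 CPM in mature and 607 CPM in dividing thymocytes.

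The iNKT library differed from total thymocytes in 3 of the 13 shares over every group. CYTB, the only mitochondrial-encoded subunit of complex III, took 8.38% to 10.1% in the 3 iNKT groups and 10.9% to 12.5% in the 7 groups of total thymocytes. ND2 took 2.13% to 2.44% in iNKT groups and 1.40% to 1.88% in the others, and COX2 took 23.1% to 24.2% and 20.7% to 22.2%. The other 10 shares overlapped. The same count over all genes was not made, so 3 of 13 is not read as particular to these genes. Over whole libraries, CYTB was at 4433 CPM in iNKT cells and 6957 CPM in total thymocytes, and its share of the mitochondrial sum was 0.704 times (0.700 to 0.708) that in total thymocytes. All groups of one kind come from a single library, so the spread between libraries is unknown.

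**Figure D3:**
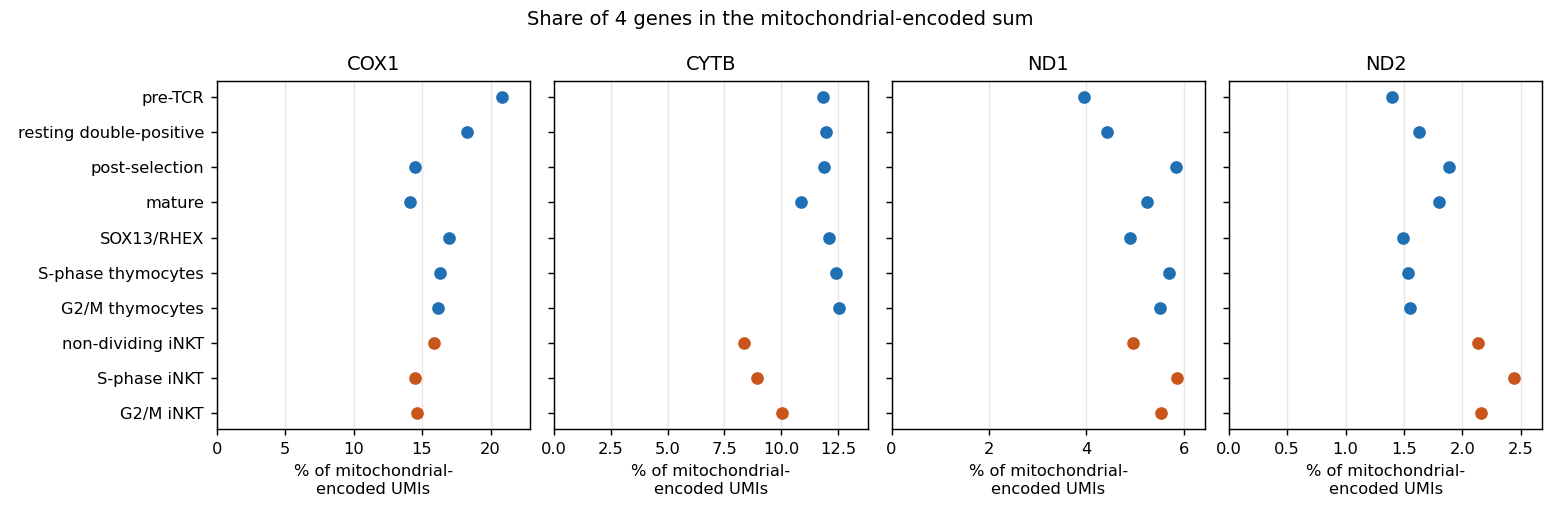
Share of COX1, CYTB, ND1 and ND2 in the summed mitochondrial-encoded UMIs (%), by cell group. Blue points are groups of total thymocytes and orange points groups of the iNKT library, and counting intervals are not drawn. COX1 is highest and ND1 lowest in pre-TCR and resting double-positive cells, and the iNKT points lie apart from the others for CYTB and ND2.

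Most nuclear-encoded members were more abundant in dividing thymocytes than in resting double-positive cells. With 100 or more UMIs in both groups combined, 63 members could be compared, of which 56 were higher and 7 lower. Of all 6244 genes compared, 2555 were higher and 3689 lower. At least 1.5-fold higher were 21 members (33.3%), against 20.3% of all 6244 genes with that many UMIs. At least 1.5-fold lower were 2 (3.17%), against 31.8%. The median log2 ratio of the members was 0.30 and that of all genes was -0.20. Among cells with 2000 to 4000 UMIs, 5 of 29 tested members were higher and 0 lower, against 16.7% and 16.6% of all 688 genes. The share of higher members was thus near that of all genes at this depth. With cells above 10% mitochondrial UMIs also left out, 6 of 26 were higher and 0 lower, against 16.4% and 15.7%. When the groups were scaled by TMM factors, 40 members passed 1.5-fold upward and 0 downward, beside 33.0% and 16.6% of all genes. The summed mitochondrial level, 0.840 times that of resting double-positive cells, became 1.11 under the same scaling. The TMM factor between these groups was -0.40 on the log2 scale. It was -0.30 between the libraries, -0.19 for mature against resting double-positive and for non-dividing iNKT against mature cells, and 0.14 for dividing against non-dividing iNKT cells.

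By complex, the summed nuclear level in dividing over resting double-positive cells was 1.41 (1.31 to 1.52) for complex III, 1.38 (1.34 to 1.43) for ATP synthase, 1.25 (1.21 to 1.29) for complex I and 1.24 (1.20 to 1.28) for complex IV. Complex II was at 0.869 (0.781 to 0.970), but at 1.15 under TMM scaling, under which the other complexes stayed higher (1.63 to 1.86). Of 29 subunits of complex I, 10 were at least 1.5-fold higher, as were 3 of 5 of complex III, 5 of 13 of ATP synthase and 2 of 10 of complex IV, but 0 of 3 of complex II, against 20.3% of all genes. Complex IV also had 2 of 10 genes at least 1.5-fold lower, COX6A2 and COX7A2L, against 31.8% of all genes. For the mitochondrial-encoded subunits the same ratios were 0.926 for complex I, 0.875 for complex III, 0.801 for complex IV and 0.870 for ATP synthase, and under TMM scaling all of them were above 1 (1.06 to 1.22).

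**Figure D4:**
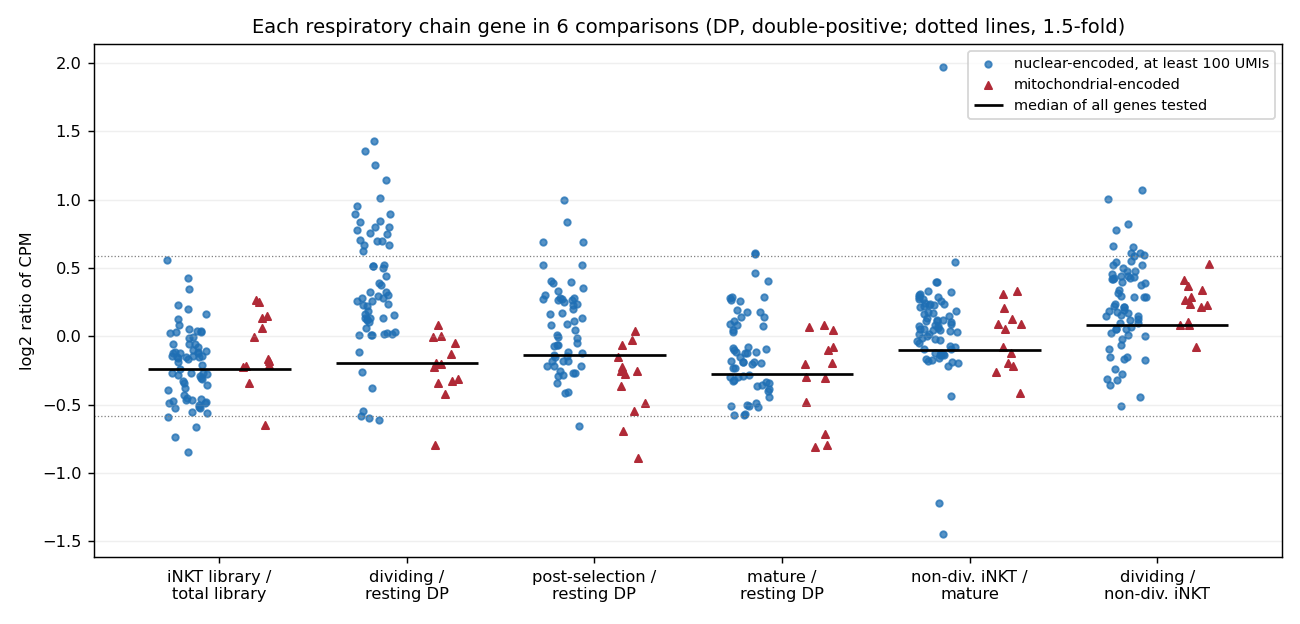
Log2 ratio of CPM (0.5 added to each summed count) of every nuclear-encoded member that could be compared and of the 13 mitochondrial-encoded members, in 6 comparisons. Black lines are the medians of all genes tested and dotted lines mark 1.5-fold. In dividing against resting double-positive cells, 56 of 63 nuclear points lie above 0 and 11 of 13 mitochondrial points below it. Of all 6244 genes tested there, 2555 were above 0 and 3689 below.

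The largest ratios among tested members were those of NDUFAF5, a complex I assembly factor, ATP5MC3, 1 of the genes for the membrane ring of ATP synthase, NDUFB6, an accessory subunit of complex I, COX5A of complex IV and NDUFV2 of the NADH-oxidising module of complex I. ATP5MC3 was at 147 CPM in resting double-positive, 190 in pre-TCR, 192 in post-selection and 151 in mature cells, and at 377 CPM in dividing thymocytes, a ratio to resting double-positive cells of 2.57 (2.18 to 3.05). COX5A was at 168 CPM in resting double-positive and 187 CPM in pre-TCR cells and at 255 to 477 CPM in all other groups, with 373 CPM in dividing thymocytes (ratio 2.22, 1.90 to 2.61). NDUFB6 was at 126 CPM in dividing and 52.5 CPM in resting double-positive cells, and NDUFV2 at 162 and 79.7 CPM. NDUFAF5 rested on 7 UMIs in resting double-positive cells, and its ratio of 2.88 has an interval of 1.35 to 7.33.

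Fewer members were lower in dividing cells. COX7A2L, which helps to join complexes III and IV into supercomplexes, was at 308 CPM in resting double-positive and 203 CPM in dividing thymocytes, a ratio of 0.660 (0.583 to 0.750). COX6A2, the heart and skeletal muscle isoform of a complex IV subunit, was at 63.1 and 41.6 CPM. Its direction turned at matched depth (1.55). NDUFAF3, a complex I assembly factor, was at 113 and 75.5 CPM. SDHC and SDHD, the membrane anchors of complex II, were at 102 and 154 CPM in resting double-positive cells and at 70.3 and 119 CPM in dividing cells, whereas SDHB, its iron-sulfur subunit, was at 133 and 149 CPM. The ratio of SDHD, 0.770, was 1.02 under TMM scaling and 1.30 in cells with at least 1000 genes.

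A few red cell precursors lay among the dividing thymocytes. HBB, the beta chain of haemoglobin, summed to 2957 CPM in dividing thymocytes and 12.6 CPM in resting double-positive cells. Without the 3 cells that had at least 10 UMIs of HBB, HBM and AHSP, of which 2 were dividing, 21 members were again at least 1.5-fold higher and 2 lower, and the change in mitochondrial per nuclear UMI was 0.657.

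Dividing iNKT cells were compared with non-dividing iNKT cells of the same library. Of 70 tested members, 56 were higher and 14 lower in dividing cells, beside 5152 and 4067 of all 9219 genes. At least 1.5-fold higher were 10 members (14.3%), against 18.7% of all genes. The members' share past 1.5-fold was thus not above that of other genes here. None was 1.5-fold lower, against 10.9% of all genes. Under TMM scaling the split was 4 higher and 2 lower, against 14.0% and 15.9% of all genes. The nuclear sum was 1.60% in dividing and 1.36% in non-dividing cells, a ratio of 1.18 (1.16 to 1.19). Every nuclear ratio by complex was smaller under TMM scaling. It was then 1.11 for complexes I and III, 1.17 for ATP synthase and 0.877 for complex II. Complex IV turned from 1.06 to 0.962. The mitochondrial sum was 5.99% and 5.18%, a ratio of 1.16 (1.15 to 1.16). By complex the mitochondrial ratios were 1.11 to 1.29, and 1.004 to 1.17 under TMM scaling. Mitochondrial per nuclear UMI was 0.983 (0.969 to 0.998) times that in non-dividing cells. Its direction turned with equal weight per cell (1.14) and in cells thinned to 2000 UMIs (1.16), so none is given. Of dividing iNKT cells 12.2% had over 10% mitochondrial UMIs, against 4.88% of non-dividing ones, and without these cells the ratio was 0.909.

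Several genes were high in dividing cells of both libraries. Of the 21 members at least 1.5-fold higher in dividing thymocytes and the 10 in dividing iNKT cells, 7 were in both lists, 33.3% and 70.0% of them, among 63 members tested in both. Over all genes 750 were shared, 59.2% and 43.4% of the 2 lists, which include the cycle genes that define dividing cells. They were ATP5MC3, ATP5MG, COX5A, NDUFAB1, NDUFAF5, NDUFB6 and NDUFV1. In iNKT cells ATP5MC3 was at 364 CPM in dividing and 182 CPM in non-dividing cells (ratio 2.005, 1.83 to 2.19), and COX5A at 473 and 299 CPM (1.58, 1.46 to 1.70). COX7A2L was again lower, at 234 and 333 CPM (0.702, 0.630 to 0.781), and so was SDHD, at 100.3 and 125 CPM (0.802, 0.677 to 0.943). The shared genes were listed after their values had been seen.

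Within the cycle, 2 ATP synthase genes were among those that differed between S phase and G2/M. This comparison was added after the levels had been seen. ATP5MD, a small subunit that stabilises dimers of ATP synthase, was at 773 CPM in G2/M and 462 CPM in S-phase thymocytes (ratio 1.67, 1.56 to 1.79), and at 651 and 414 CPM in iNKT cells (1.57, 1.36 to 1.82). ATP5MC1, which encodes the same mature ring subunit as ATP5MC3, was at 102 CPM in G2/M and 244 CPM in S-phase thymocytes (0.418, 0.365 to 0.477). In iNKT cells it was at 172 and 231 CPM (0.744, 0.580 to 0.949), short of 1.5-fold. The difference was not particular to ATP synthase. UQCR11 of complex III, matched by identifier outside the rule, was at 79.7 CPM in G2/M and 201 CPM in S-phase thymocytes. In G2/M and S-phase iNKT cells UQCR11 was at 119 and 226 CPM. Of 63 tested members 2 were at least 1.5-fold higher in G2/M thymocytes, against 14.4% of all genes, and 2 lower, against 8.11%, so most members were within 1.5-fold between these phases. In iNKT cells it was 1 higher and 1 lower of 57, against 8.38% and 5.41%. Without cells above 10% mitochondrial UMIs, the ratios in thymocytes were 1.67 for ATP5MD and 0.416 for ATP5MC1.

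**Figure D5:**
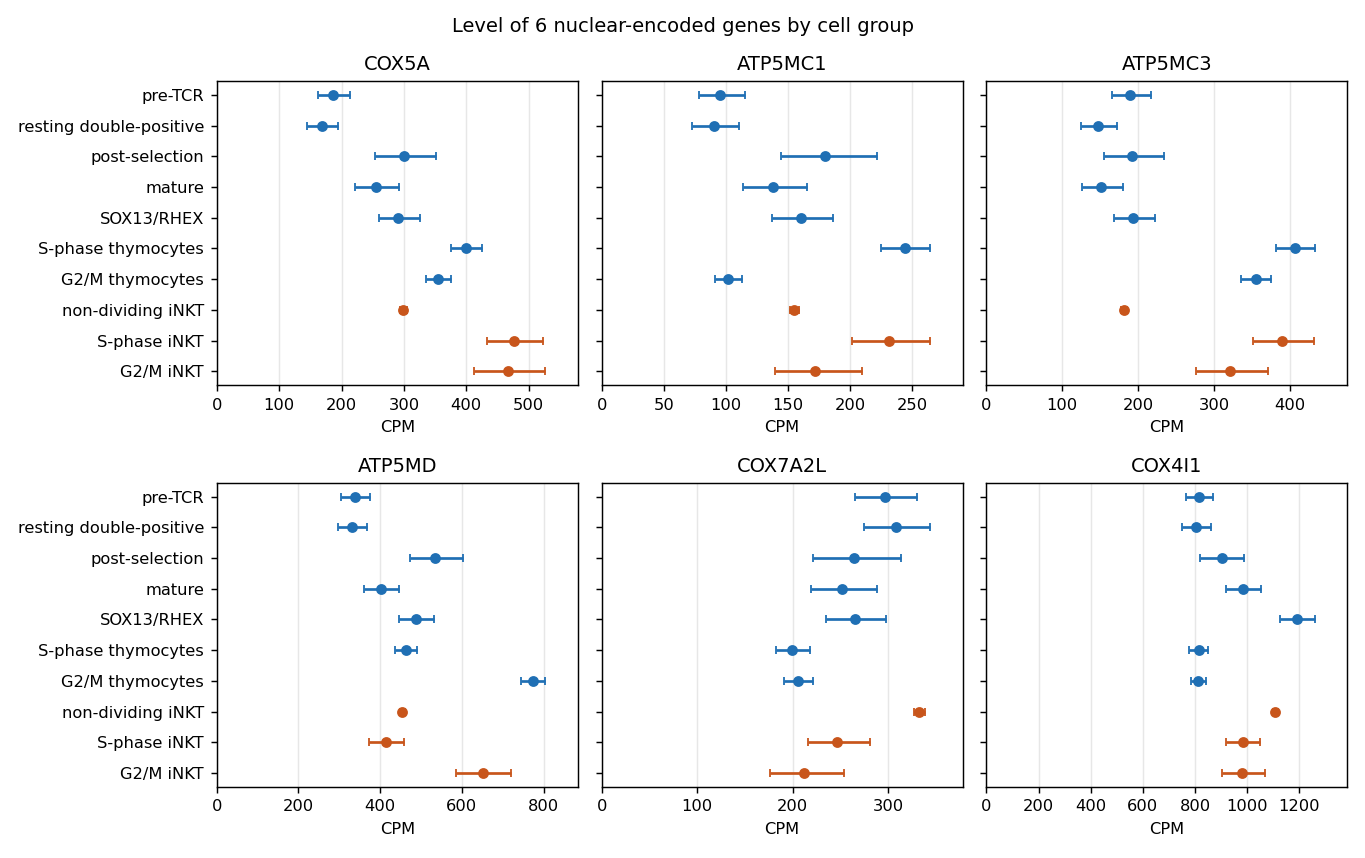
Level in CPM of 6 nuclear-encoded members by cell group, with 95% counting intervals. Blue points are groups of total thymocytes and orange points groups of the iNKT library. COX5A is lowest in resting double-positive and pre-TCR cells (168 and 187 CPM), ATP5MC3 is highest in the dividing groups, and ATP5MC1 and ATP5MD differ between S phase and G2/M.

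After selection, nuclear-encoded members as a whole stayed near the level of resting double-positive cells while the mitochondrial-encoded ones were lower. The nuclear sum in post-selection cells was 1.04 (1.01 to 1.07) times, and the mitochondrial sum 0.781 (0.770 to 0.792) times, that of resting double-positive cells. Of 56 tested members 4 (7.14%) were at least 1.5-fold higher, against 11.5% of all 2408 genes, and 1 (1.79%) was lower, against 24.3%. The 4 were ATP5MC1 (180 and 90.3 CPM, ratio 1.99, 1.48 to 2.69), COX5A (300.1 and 168 CPM, 1.79), ATP5MD (534 and 330.3 CPM, 1.62) and NDUFAB1, the mitochondrial acyl carrier protein (182 and 113 CPM, 1.62). The lower one was COX6A1, the widely expressed form of the isoform pair with COX6A2, at 266 and 419.7 CPM (0.634, 0.518 to 0.772). Of the mitochondrial-encoded genes 12 of 13 were lower, as were 1439 of all 2408 genes.

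Mature cells had a nuclear sum of 0.916 (0.893 to 0.939) times that of resting double-positive cells, which became 1.05 under TMM scaling, and a mitochondrial sum of 0.789 (0.779 to 0.798) times. Of 58 tested members 2 (3.45%) were at least 1.5-fold higher, against 10.4% of all 2781 genes, and 0 lower, against 29.2%. This split depended on depth and scaling: it was 0 higher and 4 lower both in cells thinned to 2000 UMIs and in cells with 2000 to 4000 UMIs, and 4 higher and 0 lower under TMM scaling, so no direction is given for it. ATP5MC1 (138 and 90.3 CPM, 1.53) and COX5A (255 and 168 CPM, 1.52) were again the highest. The lowest were NDUFS5, an accessory subunit of complex I (284 and 425 CPM, 0.669), ATP5IF1, the inhibitor that stops ATP synthase from running backwards (235 and 349.7 CPM, 0.672, 0.562 to 0.802), and NDUFB8 of complex I (85.1 and 126 CPM, 0.674).

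Across whole libraries, iNKT thymocytes had slightly fewer transcripts of both genomes than total thymocytes relative to all UMIs. The nuclear sum was 1.38% and 1.59% (ratio 0.872, 0.868 to 0.875) and the mitochondrial sum 5.23% and 5.78% (0.905, 0.904 to 0.907). Both directions turned under TMM scaling, to 1.08 and 1.12. Of 70 tested members 0 were at least 1.5-fold higher, against 16.7% of all 10488 genes, and 4 (5.71%) lower, against 29.4%. Under TMM scaling 3 were higher and 0 lower, against 24.2% and 19.4% of all genes. Dividing cells, which had the highest nuclear sum, were 863 of 8512 total thymocytes and 197 of 11950 iNKT cells by the thresholds used. With CD79A left out of the B-lineage exclusion they were 1433 and 242, so these are not fractions of cycling cells. The part of cell mix in the difference between libraries was not tested. Mitochondrial per nuclear UMI was 3.78 and 3.64, a ratio of 1.04 that was 0.928 in cells with 2000 to 4000 UMIs, so no direction is given for it.

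The 4 lower genes were NDUFAF7 (6.42 and 11.6 CPM, ratio 0.556, 0.477 to 0.647), an arginine methyltransferase needed for complex I assembly, NDUFV1 (64.0 and 107 CPM, 0.600), which carries the site of NADH oxidation, NDUFB6 (62.0 and 98.0 CPM, 0.632) and ATP5PF of the peripheral stalk of ATP synthase (404 and 608 CPM, 0.665). All 13 nuclear ATP synthase members, the inhibitor included, were lower in the iNKT library, with a summed ratio of 0.787 (0.781 to 0.792). They are not all genes of that complex. Under TMM scaling 8 of them were lower and the summed ratio was 0.972. Most genes were lower before that scaling, 6714 of all 10488, with a median log2 ratio of -0.24. The highest ratios were those of the assembly factor NDUFAF2 (22.2 and 15.04 CPM, 1.48), COX7A2L (326 and 243 CPM, 1.34) and COX4I1, the common isoform of complex IV subunit 4 (1093 and 861 CPM, 1.27, 1.25 to 1.29).

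Against mature cells of the total thymus, which are also non-dividing, the difference was small in shares of all UMIs. Under TMM scaling it was larger for nuclear-encoded members, with summed ratios of 1.24 for complexes I and IV, 1.19 for complex III, 1.20 for ATP synthase and 1.06 for complex II. Non-dividing iNKT cells had 1.36% nuclear-encoded and 5.18% mitochondrial-encoded UMIs, and mature cells 1.27% and 5.32%, giving ratios of 1.07 (1.05 to 1.09) and 0.973 (0.964 to 0.983), the latter 1.11 under TMM scaling. Mitochondrial per nuclear UMI was 0.910 (0.890 to 0.929) times that in mature cells. Of 70 tested members 1 (1.43%) was at least 1.5-fold higher, against 16.3% of all 9148 genes, and 2 (2.86%) lower, against 21.5%. Under TMM scaling the split was 4 and 2, against 22.7% and 14.4% of all genes. COX7A2L (333 and 252 CPM, 1.32, 1.15 to 1.52) and NDUFB4 of complex I (339.6 and 257 CPM, 1.32, 1.16 to 1.52) were among the highest. The 2 lower genes were NDUFAF7 (6.41 and 14.4 CPM, 0.446, 0.251 to 0.874) and NDUFA4L2, a paralogue of the complex IV subunit NDUFA4 known to respond to low oxygen (6.36 and 16.8 CPM, 0.379, 0.222 to 0.703). They rest on 12 and 14 UMIs in mature cells.

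Some members are isoforms typical of other tissues. COX7A1, the heart and muscle isoform of complex IV subunit 7A, was at 9.30 CPM in total thymocytes and 6.51 CPM in iNKT cells. It had 1 UMI each in resting double-positive and mature cells, 0 in post-selection cells and 96 (16.2 CPM) in dividing thymocytes, a ratio to resting double-positive cells of 16.7 with an interval of 2.93 to 666. The 1 member called higher in iNKT than in mature cells was COX7A1 too, at 7.03 CPM against that single UMI (ratio 5.87, interval 1.04 to 232). COX7A2, the liver-type isoform present in most tissues, was at 703 and 505 CPM in the libraries. COX4I2, the lung isoform, had 1 UMI in total thymocytes and 0 in iNKT cells, COX6B2, the testis isoform, had 12 and 1, and NDUFS8, an iron-sulfur subunit of complex I, had 0 and 4. Whether the gene model used for counting covers the 3′ end of NDUFS8 could not be checked here, so its count is not read as its expression. These 3 are the members that did not reach 100 UMIs in the comparison of the libraries.

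Over 10 groups (pre-TCR, resting double-positive, post-selection, mature, SOX13 RHEX, and non-dividing iNKT cells, and S-phase and G2/M cells of each library), the highest CPM of 38 of the 70 tested members was in S-phase or G2/M thymocytes and of another 11 in dividing iNKT cells. These are 54.3% and 15.7% of the members, beside 14.7% and 19.0% of all 10488 genes with at least 100 UMIs, where the same count was made. COX4I1 was an exception, at 805 CPM in resting double-positive, 813 CPM in dividing, 984 CPM in mature and 1191 CPM in SOX13 RHEX cells and 1108 CPM in non-dividing iNKT cells. ATP5IF1 was highest in G2/M thymocytes (442 CPM) and lowest in mature cells (235 CPM).

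Another 5 genes of the chain have no symbol in the deposited list and were matched by identifier, outside the rule. SDHA, the catalytic subunit of complex II, was at 59.2 CPM in total thymocytes and 48.8 CPM in iNKT cells. NDUFA4 of complex IV was at 318 and 429 CPM, and like COX5A it was low in resting double-positive (194 CPM) and pre-TCR cells (187 CPM) and higher in dividing thymocytes (378 CPM, ratio 1.94, 1.68 to 2.26). UQCR11 of complex III was at 44.7 CPM in resting double-positive cells and 196 CPM in post-selection cells (ratio 4.39, 3.06 to 6.37). NDUFB1 of complex I was at 212 and 113 CPM in the libraries, a ratio of 0.531 (0.512 to 0.550) in iNKT cells. SDHAF2, a complex II assembly factor, was at 55.2 and 56.3 CPM.

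Other genes that serve the chain were read in lists chosen by function. In dividing over resting double-positive cells, the mitochondrial ribosome, which translates the 13 mitochondrial messages, had 17 of 67 tested genes higher by 1.5-fold or more and 1 lower, with a summed ratio of 1.24. The tricarboxylic acid cycle and pyruvate dehydrogenase had 3 of 17 higher and 0 lower (1.20), among them PDHB (108 and 57.3 CPM, 1.89). Protein import had 6 of 17 higher and 1 lower (1.32), led by TIMM8A (40.4 and 6.80 CPM, the latter from 7 UMIs) and the chaperone HSPD1 (255 and 100.1 CPM). Genes for transcription and upkeep of mitochondrial DNA and RNA had 2 of 13 higher and 1 lower (1.13), and TFAM, which packages that DNA, was at 92.2 and 105 CPM (0.879, 0.714 to 1.09). Assembly factors of complexes III and IV with the electron carriers had 6 of 25 higher and 3 lower (1.07). Regulators of mitochondrial genes had 1 of 6 higher, MYC (37.5 and 13.6 CPM, 2.76), and 1 lower, NRF1 (59.6 and 98.1 CPM, 0.608). The background of 20.3% higher and 31.8% lower applies to all of them. Glycolysis had 8 of 12 higher (1.93) and the cytosolic ribosome 15 of 57 (1.17).

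In dividing against non-dividing iNKT cells the mitochondrial ribosome had 12 of 70 genes higher by 1.5-fold or more and 0 lower (1.20), beside 18.7% and 10.9% of all genes, the tricarboxylic acid cycle 2 of 18 (1.24), protein import 2 of 17 (1.14), and transcription and upkeep 3 of 23 with 1 lower (1.17). None of these 4 lists held a larger share of higher genes than all genes did. Regulators of mitochondrial genes did, with 2 of 8 higher and 0 lower (1.28), which is few genes. Assembly factors of complexes III and IV with the electron carriers had 4 of 29 higher and 0 lower (1.21). PDHB was again among the highest (83.7 and 42.4 CPM, 1.98, 1.64 to 2.37), as was cytochrome c, CYCS (175 and 97.5 CPM, 1.80). The cytosolic ribosome was lower in sum (0.836), with 1 of 57 members higher. Between the libraries, glycolysis was the list with the most members higher in iNKT cells, 8 of 16 with 1 lower against 16.7% and 29.4% of all genes, with a summed ratio of 1.28, beside 0.898 for the mitochondrial ribosome and 0.876 for the tricarboxylic acid cycle, which were 1.11 and 1.08 under TMM scaling.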

How the data were processed

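The deposited matrices hold raw UMI counts per gene and barcode, per the file headers and the whole-number values, and were made with Cell Ranger 3.1 and Seurat 3.1, per the submitters' processing notes. The genome build and annotation are not given in the sources used here, nor is how reads shared by near-identical gene copies were counted, so members with such copies are uncertain.

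Cells with at least 500 genes were kept, with no limit on mitochondrial content. Members were matched by symbol. The members, gates and gene lists were chosen with earlier results of these data known. Non-dividing groups had at most 0.1% of UMIs from 28 S-phase and 35 G2/M genes, and dividing cells at least 0.3% and 5 UMIs. Pre-TCR cells had at least 2 PTCRA UMIs. Resting double-positive cells had CD4, CD8A or CD8B, and RAG1 or RAG2, without PTCRA. Post-selection cells had at least 2 UMIs of ITM2A, CD69 and TOX2 without RAG, DNTT, PTCRA, CCR7 or S1PR1. Mature cells had at least 2 UMIs of CCR7 and S1PR1 and a coreceptor, without RAG, DNTT or PTCRA. SOX13 RHEX cells had at least 2 UMIs of SOX13 and RHEX together, without CD4, RAG, DNTT or PTCRA. Post-selection and mature cells had no UMI of SOX13 or RHEX. Cells with at least 2 UMIs of B-lineage genes were left out, although CD79A had UMIs in cells of every group. Without CD79A among these genes, dividing thymocytes were 1433 instead of 863, and resting double-positive cells 655 instead of 624. In all, 2586 total thymocytes and 9664 iNKT cells were in a group. Scrublet called 0 of 8512 and 1 of 11950 cells, so it did not work, and doublets remain.

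UMIs were summed per group and given as CPM, which is not per length, so levels of different genes are not compared. Ratios have exact 95% counting intervals. A gene was counted as higher or lower at 1.5-fold, among genes with at least 100 UMIs over both groups. Genes were named by rule from the 13 mitochondrial genes, the 5 tested nuclear members with the highest and the 5 with the lowest ratio in each comparison, the tissue isoforms, ATP5IF1, the complex II subunits, and the 3 highest and 3 lowest genes of each other list. The genes shared by both dividing groups, those named between S phase and G2/M, and the 5 matched by identifier were chosen after their values were seen. Calculations were tested on simulated data. Tools were scanpy 1.11.5, igraph 0.11.9, scikit-learn 1.9.0, scipy 1.17.1, numpy 2.4.6 and matplotlib 3.10.9.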

Additional observations from a re-analysis of the deposited data

Results flagged for a closer look

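The summed level of the 13 mitochondrial-encoded genes in dividing over non-dividing cells lay on opposite sides of 1 in the 2 libraries: it was 0.948 in total thymocytes, over all 4403 non-dividing cells, and 1.16 in iNKT thymocytes. With 1 library of each kind this difference was not tested. Among cells with 4000 to 8000 UMIs the values were 1.03 and 1.14, so the sides no longer differed, and in cells with at most 10% mitochondrial UMIs they were 0.936 and 1.08.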

How the results depend on the processing

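The values below are mitochondrial per nuclear UMI relative to the second group, and numbers of nuclear members at least 1.5-fold apart, higher and lower added. Except where given above, these numbers stand without the share of all genes in the same setting. They are not read as results about the members. As reported, the libraries had 0 higher and 4 lower, mature cells 2 and 0, and iNKT against mature cells 1 and 2. With at most 10% mitochondrial UMIs the ratio was 1.02 between the libraries, 0.786 for post-selection and 0.891 for mature against resting double-positive cells, 0.881 for iNKT against mature cells and 0.909 for dividing iNKT cells. With at least 1000 genes per cell it was 1.07 between the libraries (8 members, all lower), 0.888 for iNKT against mature and 1.005 for dividing iNKT cells, and mature cells had 4 members (1 higher, 3 lower). With equal weight per cell it was 0.995 between the libraries (2 members, 1 each way), 0.765 for dividing thymocytes, 0.976 for iNKT against mature and 1.14 for dividing iNKT cells, and mature cells had 6 members (2 higher, 4 lower). Thinned to 2000 UMIs it was 0.994 between the libraries, 0.728 for post-selection (2 members) and 1.16 for dividing iNKT cells, and mature cells had 4 members (0 higher, 4 lower). With nuclear-genome UMIs as the total mature cells had 4 members (1 higher, 3 lower), and stricter cycle thresholds gave 0 higher and 2 lower. TMM scaling gave 40 members (all higher) for dividing thymocytes, 4 (all higher) for mature, 6 (4 higher, 2 lower) for iNKT against mature and 6 (4 higher, 2 lower) for dividing iNKT cells. A minimum of 20 UMIs gave 8 members (5 higher, 3 lower) for post-selection cells. Without the highest 8% of doublet scores the libraries gave 1.05 and mature cells 4 members (2 each way). Leiden clusters gave 0.608 for dividing thymocytes, 0.813 for post-selection and 0.936 (6 members) for dividing iNKT cells, and stricter cycle thresholds 0.889 for iNKT against mature cells. Of the alternatives chosen after seeing the data, leaving CD79A out of the B-lineage genes gave 0.630 for dividing thymocytes. Cells with 2000 to 4000 UMIs gave 0.928 (2 members) between the libraries, 1.006 (5 members) for dividing thymocytes and 4 members (0 higher, 4 lower) for mature cells. With at most 10% mitochondrial UMIs as well, they gave 0.923 (2 members), 0.707 (6 members), 0.790 for post-selection, 4 members (0 higher, 4 lower) for mature and 5 (5 higher, 0 lower) for iNKT against mature cells. The causes were not tested. Turned directions for single values were SDHD in dividing thymocytes at 1.30 (at least 1000 genes), 1.02 (TMM) and 1.02 (both restrictions), COX6A2 there at 1.55 and 1.88 (2000 to 4000 UMIs, alone and with both restrictions), and the COX2 share there at 0.992 (thinned), 0.992 and 0.998. Between the libraries the ND1 share was 1.007 (equal weight), 1.03 and 1.02, the ND4 share 1.002, 1.01 and 1.02, and the ND6 share 1.001 (thinned). COX6A2 in iNKT against mature cells was 1.16 and NDUFAF6 in dividing iNKT cells 0.805 when thinned. The mitochondrial sum in iNKT against mature cells was 1.03 (equal weight) and 1.11 (TMM), in dividing thymocytes 1.11 (TMM) and 1.25 (2000 to 4000 UMIs). TMM also gave 1.08 for the nuclear and 1.12 for the mitochondrial sum between the libraries and 1.05 for the nuclear sum in mature cells. Dividing against non-dividing iNKT cells at 2000 to 4000 UMIs was not run, since 23 dividing cells remained, or 7 with at most 10% mitochondrial UMIs. No paired analysis was possible because the labels carry no replicate numbers and each kind of cell has 1 library.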
